A study of Mus musculus with 4 samples.

Results

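The transcripts of 10 genes of cytokine signalling were measured in mouse CD8 T cells with and without added BATF: the transcription factors Stat3, Stat4, Stat5a, Stat5b and Stat6, the feedback inhibitors Socs1, Socs2, Socs3 and Cish, and the kinase gene Pim1. They were taken by name from the 24312 genes of the deposited table, which lists all 10. The libraries were made from poly(A) RNA of P14 CD8 T cells on a C57BL/6 background. P14 cells carry a transgenic T cell receptor for the gp33 peptide of lymphocytic choriomeningitis virus. All cells received 100 ng/ml gp33 for 1 day. They were then spun for 90 minutes at 32 °C with a retrovirus in the presence of 8 µg/ml polybrene and 10 ng/ml IL-2. The MIG group (2 libraries) received MSCV-IRES-GFP, the empty vector, and the BATF group (2 libraries) received the same vector carrying BATF. Both groups had 1 further day of activation and 2 days of expansion in 10 ng/ml IL-2, were sorted as CD8+ GFP+, and were kept for 2 more days with IL-2 lowered to 1 ng/ml. The added factor, BATF, is an AP-1 family factor that binds DNA with JUN proteins and IRF4, and here it was driven by a retroviral vector and not by its own gene.

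In this pathway a cytokine receptor activates Janus kinases, which phosphorylate STAT proteins, and the STATs then dimerise and bind DNA in the nucleus. In CD8 T cells IL-2, the cytokine of this culture, acts mainly through STAT5, IL-12 through STAT4, IL-4 through STAT6, and IL-6, IL-10 and IL-21 mainly through STAT3. SOCS proteins and CIS, the product of Cish, are induced by STATs and dampen the same receptors, and PIM1 is a serine/threonine kinase, also induced by STATs, that supports growth and survival.

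The classic STAT binding motif is TTCNNNGAA, an inverted repeat, and 2 inhibitor genes carry it near their start. The RefSeq table of promoters (build GRCm38.p6) held 13 windows of 300 bases (250 before a transcript's start and 50 after) for 9 of the 10 genes, all but Socs2. TTCNNNGAA was found in the windows of Cish and Socs3, that is in 2 of 13, against 8.30% of all 32851 windows. TTC and GAA with 4 free bases between them, the spacing that STAT6 prefers, and TGANTCA, the AP-1 motif, were in 0 of the 13 and in 6.95% and 7.81% of all windows. Each motif reads the same on both strands, and the 3 matches found do not overlap. The windows of these inhibitor genes are shown because they hold the motif, and capitals mark TTCNNNGAA. Cish is shown at chr9:107296409-107296678 (plus strand, 250 bases before the start and the first 20 after it), and Socs3 at chr11:117969367-117969616 (minus strand, the 250 bases before the start).
Cish: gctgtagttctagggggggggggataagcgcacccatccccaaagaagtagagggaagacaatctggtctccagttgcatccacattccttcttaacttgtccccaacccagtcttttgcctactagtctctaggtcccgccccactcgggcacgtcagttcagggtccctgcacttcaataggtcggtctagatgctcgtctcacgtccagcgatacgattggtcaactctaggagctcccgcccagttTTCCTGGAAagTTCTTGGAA
Socs3: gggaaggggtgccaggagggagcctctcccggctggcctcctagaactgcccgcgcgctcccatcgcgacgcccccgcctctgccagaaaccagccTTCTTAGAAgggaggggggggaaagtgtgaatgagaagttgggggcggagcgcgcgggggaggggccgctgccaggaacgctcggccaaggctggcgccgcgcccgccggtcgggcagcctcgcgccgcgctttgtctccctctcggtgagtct
The match in Socs3 begins 154 bases before the start. The matches in Cish begin at bases 1 and 12 after the start and are separated by a pair of bases. A match describes the letters of the window and is no measure of binding.

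Library totals ran from 19004726 to 24795707 fragments. Levels are CPM (fragments of a gene relative to the library total, after TMM scaling), and each library counted as 1 sample. The libraries are described as biological replicates without a statement that they came from separate mice. The p-values therefore reflect how far these libraries differ, and some of that spread may be technical. Batf itself stood at 36.1 and 26.5 CPM in MIG and at 1342 and 933.9 CPM in BATF. All 10 markers of CD8 T cells were present in each library, at 175 CPM or more, while Cd4 stayed under 1 CPM. The markers of CD4 and regulatory T cells summed to 35.9 and 42.6 CPM in MIG and to 56.8 and 55.03 CPM in BATF. Most of this came from Zbtb7b (23.0 and 17.9 CPM, then 44.2 and 34.9 CPM) and Ikzf4 (8.91 and 21.7 CPM, then 9.12 and 17.6 CPM) together. The CD8 markers summed to 5613 and 5554 CPM and then to 4673 and 5181 CPM. Among them Cd8a stood at 659 and 750 CPM and then at 423 and 599 CPM. Cd8b1 stood at 675 and 656 CPM and then at 498 and 593 CPM. Both were lower in BATF without overlap but did not pass (edgeR adjusted p = 0.337 for each). Cd3g, Cd2, Lck and Zap70 overlapped between the groups. The part of these differences in the values of the 10 genes was not tested, and in bulk RNA fewer cells of a type cannot be told apart from less RNA per cell.

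All 10 genes were well covered, with between 430 and 6001 fragments per gene and library, and all passed the filter on low counts. None passed edgeR's quasi-likelihood test at a Benjamini-Hochberg adjusted p of 0.05 over the 13008 genes tested: 0 of 10 were called, against 1.09% of all genes (0.884% higher and 0.208% lower). Before adjustment, p was under 0.05 for 4 of 10, Stat4 and Socs3 on the lower side and Socs2 and Pim1 on the higher, against 10.8% of all genes (4.09% lower and 6.69% higher). DESeq2 called 3 of 10, Stat4 and Socs3 lower and Socs2 higher. Of the 11736 genes that it gave an adjusted p, it called 2.97% (0.809% lower and 2.16% higher). Limma-voom called 0 of 10, against 123 of the 13008 genes it tested, and limma on log2(FPKM + 1) called 0 of 10, against 36 of 10304. The median log2 fold change of the 10 was −0.05 and that of all tested genes −0.01. The largest differences among the 10 thus came from 4 genes that point in opposite directions, and these did not pass the main test.

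**Figure D1:**
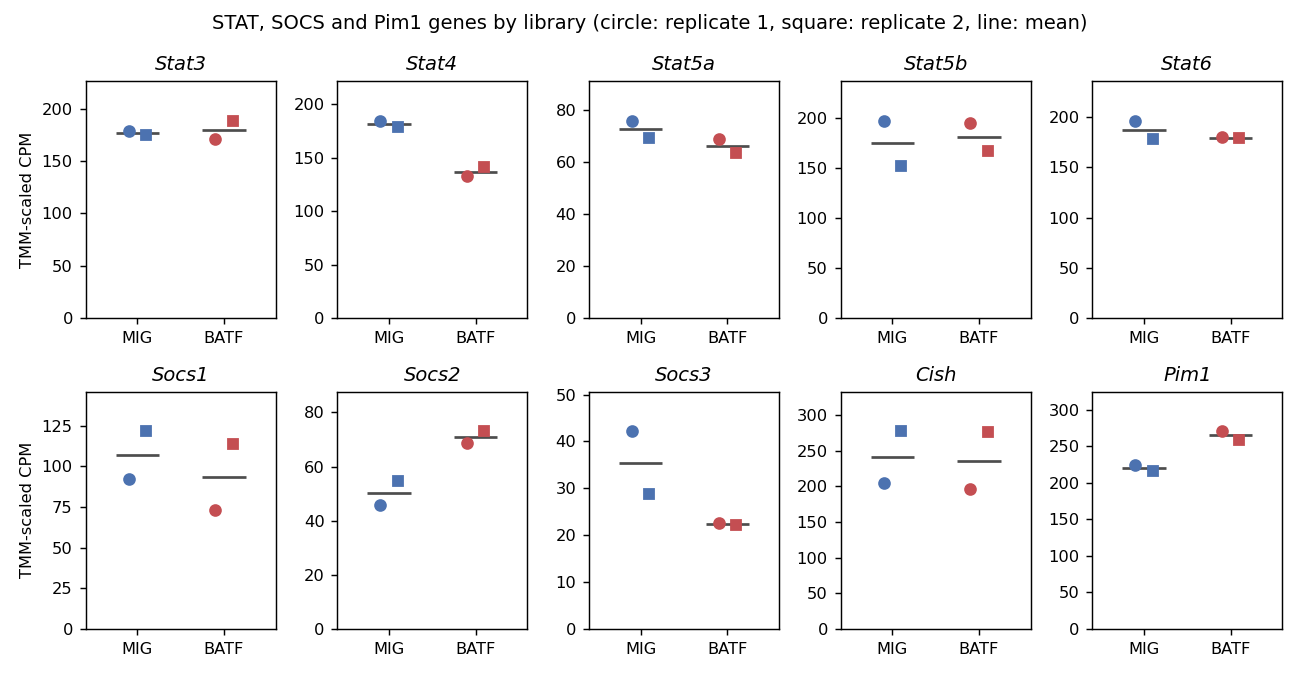
TMM-scaled CPM (vertical axis, from 0, a scale for each gene) of the 10 genes in the 2 MIG and 2 BATF libraries; circles are replicate 1, squares replicate 2 and lines group means. Stat4, Socs2, Socs3 and Pim1 show a gap between the groups, while Cish and Socs1 differ more between the libraries of a group than between groups.

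Among the STAT factors, Stat4, which carries the signal of IL-12 in T cells, had 185 and 179 CPM with the empty vector and 133 and 141 CPM with BATF. Both BATF libraries lay below both MIG libraries, and the libraries of a group were within a few percent of each other. The log2 fold change was −0.41 ± 0.08 SE (95% interval −0.60 to −0.22, not adjusted for the number of genes), or 24.6% less, with an adjusted p of 0.0881 by edgeR's quasi-likelihood test (n = 2 per group). It was 16.4% of all tested genes that had a larger log2 fold change in either direction. The adjusted p was 0.0376 in DESeq2, but Stat4 did not pass in 13 of the 16 alternative fits. Leaving out 1 library gave log2 fold changes of −0.45 to −0.36.

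Stat3, which serves IL-6, IL-10 and IL-21, stood at 178 and 174 CPM in MIG and at 171 and 188 CPM in BATF, so that the BATF libraries lay on either side of the MIG libraries. Its log2 fold change was 0.03 (95% interval −0.17 to 0.23). Stat6, the factor of IL-4 signalling, stood at 196.3 and 177.6 CPM and then at 179.6 and 178.6 CPM, with both BATF values inside the MIG range (log2 fold change −0.06, 95% interval −0.26 to 0.14). Both intervals run from no lower than −0.26 to no higher than 0.23. In the RefSeq annotation the gene Nab2 overlaps Stat6, and the labels do not say that strand was kept, so reads in the shared stretch cannot be assigned by strand.

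The STAT5 genes, which encode the main transducers of IL-2, lie next to each other on chromosome 11 beside Stat3. Stat5a stood at 75.8 and 69.0 CPM in MIG and at 68.9 and 63.6 CPM in BATF. The groups do not overlap, but the gap between them is far smaller than the spread within either (log2 fold change −0.13, 95% interval −0.36 to 0.09, edgeR adjusted p = 0.767). Stat5b stood at 198 and 152 CPM and then at 195 and 167 CPM, with both BATF values inside the MIG range (log2 fold change 0.05, 95% interval −0.29 to 0.38). The sign for Stat5b turned without MIG replicate 2 (−0.14) and without BATF replicate 1 (−0.07). The paralogs are close copies over much of their coding sequence, and no source used here says how fragments that match both were split.

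Per length, in the deposited FPKM, Stat4 was the most abundant of the 5 STAT genes in each group, at 71.9 and 66.5 FPKM in MIG and 50.2 and 54.4 FPKM in BATF. Stat6 followed (51.0 and 48.7 FPKM as group means), then Stat3 (40.5 and 41.2) and Stat5b (36.4 and 37.4), whose libraries overlapped with each other in both groups, and Stat5a was last (20.1 and 18.4). In BATF the lowest Stat4 library lay above the highest Stat6 library by less than 2 FPKM. Stat4 made up 31.1% and 32.7% of the summed FPKM of these 5 genes in MIG and 25.6% and 27.3% in BATF. The ratio of Stat4 to Stat3 was 1.72 and 1.69 in MIG and 1.29 and 1.25 in BATF, and that of Stat5b to Stat5a was 1.96 and 1.66 and then 2.11 and 1.95. The first ratio separates the groups by more than the spread within them and the second does not. With 2 libraries against 2, no permutation test of such a ratio can give a p below 0.333, so none was run.

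**Figure D2:**
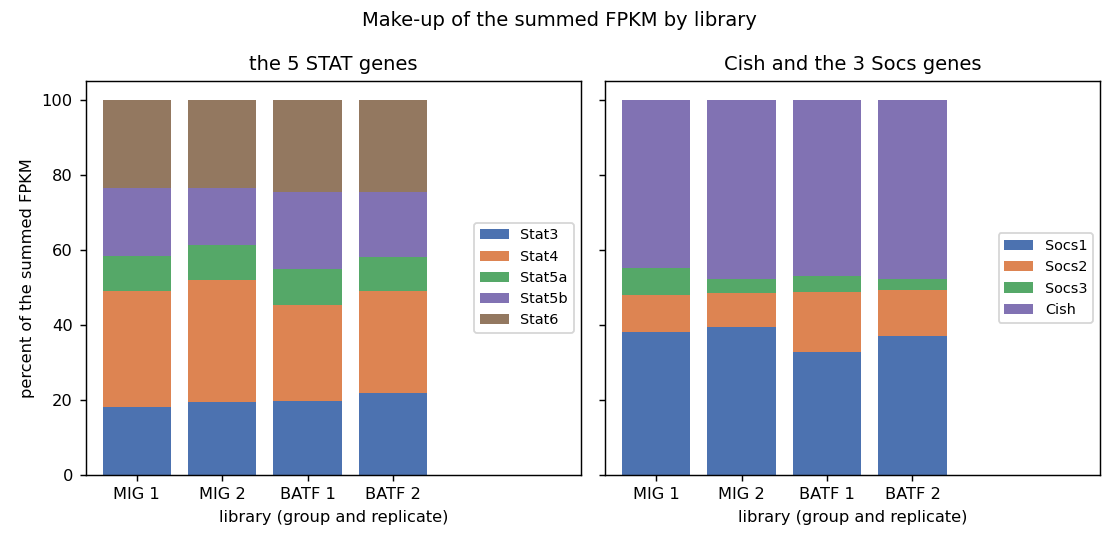
Share of each gene (vertical axis, percent of the summed FPKM) within the 5 STAT genes (left) and within Cish, Socs1, Socs2 and Socs3 (right), with 1 bar per library. The Stat4 part is 31.1% and 32.7% in MIG against 25.6% and 27.3% in BATF, and the Socs2 part is 9.75% and 9.15% against 16.0% and 12.3%.

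The feedback inhibitors differed in direction. Socs2, which binds growth hormone receptor and other receptors, stood at 45.9 and 54.7 CPM in MIG and at 68.8 and 73.0 CPM in BATF. Both BATF libraries lay above both MIG libraries. The log2 fold change was 0.50 ± 0.11 SE (95% interval 0.23 to 0.76, edgeR adjusted p = 0.123), and 12.3% of tested genes had a larger one in either direction. The adjusted p was 0.0318 in DESeq2 and 0.0440 in edgeR with no filter on low counts, but Socs2 did not pass in 12 of the 16 alternative fits. Leaving out 1 library gave log2 fold changes of 0.38 to 0.62.

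Socs3, the inhibitor that binds the IL-6 receptor subunit gp130, stood at 42.2 and 28.8 CPM in MIG and at 22.7 and 22.2 CPM in BATF. The BATF libraries nearly coincide and lie below both MIG libraries, which are themselves 1.46-fold apart. The log2 fold change was −0.66 ± 0.19 SE (95% interval −1.10 to −0.22, edgeR adjusted p = 0.216), the largest in size of the 10 genes, and 7.50% of tested genes had a larger one in either direction. MIG replicate 1 carries much of this difference: without it the log2 fold change was −0.36 (edgeR adjusted p = 0.325), and without MIG replicate 2 it was −0.92 (edgeR adjusted p = 0.000472). DESeq2 on all libraries gave an adjusted p of 0.0407.

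Cish, the classic STAT5 feedback gene of T cells, stood at 205 and 277 CPM in MIG and at 196 and 276 CPM in BATF. Each group holds 1 low and 1 high library at almost the same levels. The log2 fold change was −0.03 (95% interval −0.49 to 0.43, edgeR adjusted p = 0.990). Socs1, which blocks Janus kinases directly and limits interferon and common gamma chain cytokine signals, showed the same layout, with 92.5 and 121.7 CPM in MIG and 73.2 and 113.7 CPM in BATF (difference −0.19 on the log2 scale, 95% interval −0.71 to 0.32, edgeR adjusted p = 0.894). The sign of both turned without MIG replicate 2 (Cish 0.19, Socs1 0.01) and without BATF replicate 1 (Cish 0.20, Socs1 0.09). Their intervals are about as wide as that of Socs3.

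Per length, Cish (121 FPKM as the MIG mean, 118 as the BATF mean) and Socs1 (101 and 87.7 FPKM) were the more abundant inhibitors, and their libraries overlapped with each other in both groups. Socs2 followed at 24.5 and 34.4 FPKM and Socs3 at 13.9 and 8.71 FPKM. Cish made up between 45.0% and 47.8% of the summed FPKM of the 4 inhibitors in each library. The ratio of Socs2 to Socs3 was 1.36 and 2.38 in MIG and 3.79 and 4.11 in BATF. The lowest BATF ratio exceeds the highest MIG ratio, by an amount close to the gap between the MIG libraries.

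Pim1 had the highest mean of the 10 genes per length, at 145 and 134 FPKM in MIG and 169 and 165 FPKM in BATF. Its libraries overlapped with those of Cish in MIG and lay above them in BATF. On the CPM scale it stood at 225 and 216 in MIG and 270.5 and 259 in BATF, so that both BATF libraries lay above both MIG libraries. The log2 fold change was 0.26 ± 0.08 SE (95% interval 0.08 to 0.45, edgeR adjusted p = 0.237), and 26.6% of tested genes had a larger one in either direction. Its log2 fold change lay between 0.23 and 0.30 in all fits that left out 1 library, and its adjusted p was 0.425 in DESeq2. The related kinase genes Pim2 (111 and 133 CPM, then 68.1 and 110.0 CPM) and Pim3 (30.6 and 36.3 CPM, then 27.7 and 42.6 CPM) had log2 fold changes of −0.46 and 0.08 (edgeR adjusted p = 0.541 and 0.969). Without BATF replicate 2 these were −0.84, which passed (edgeR adjusted p = 0.0152), and −0.27.

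**Figure D3:**
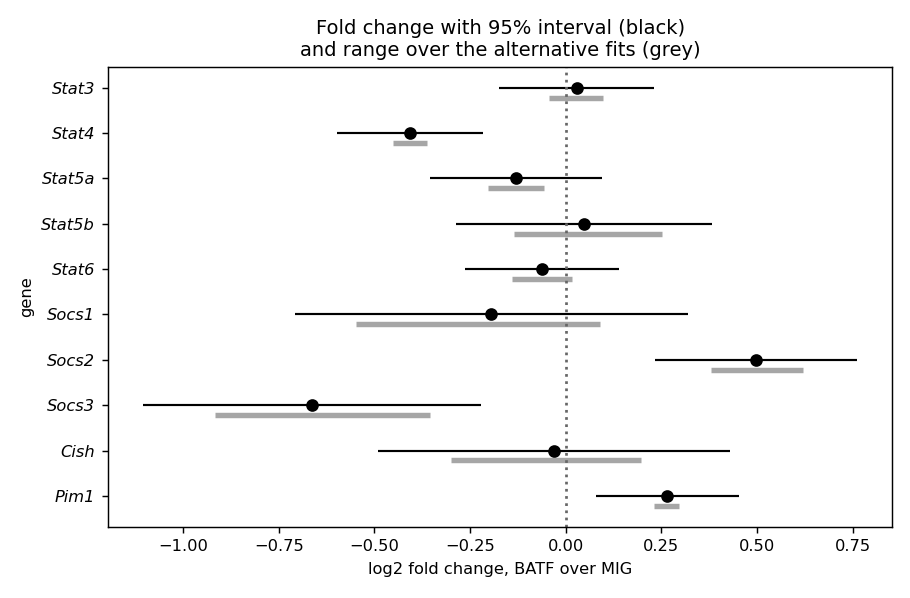
Log2 fold change of BATF over MIG (horizontal axis) for the 10 genes, with the 95% interval of the edgeR fit in black and the range over the 16 alternative fits in grey. Stat4, Socs2, Socs3 and Pim1 kept their sign in each alternative, as did Stat5a, and the other 5 changed sign in at least 1.

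The groups did not overlap in 5 of the 10 genes, Stat4, Stat5a and Socs3 on the lower side and Socs2 and Pim1 on the higher, against 38.7% of all tested genes (19.4% lower and 19.3% higher). This share is near that of all genes. For 9 of the 10 genes the 95% interval of the difference lay within a 2-fold change in either direction, the exception being Socs3.

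The genes also differed inside a group. No label says whether libraries with the same replicate number share a mouse, batch or day. In MIG the library named replicate 2 had 1.35 times the Cish level and 1.31 times the Socs1 level of replicate 1, and in BATF the ratios were 1.41 and 1.55. Socs2 was higher in replicate 2 of both groups as well, by 1.19 and 1.06 times. Stat5b went the other way, at 0.771 and 0.855, as did the remaining inhibitor, Socs3, at 0.683 and 0.979. So did Stat5a (0.910 and 0.923), Stat6 (0.905 and 0.994) and Pim1 (0.963 and 0.958). The share of all genes in this direction was not counted. Of the 10 genes, 3 stood higher in replicate 2 in both groups (Cish, Socs1 and Socs2), a share near the 30.4% of all tested genes. Among 22 other genes known as STAT5 targets, 16 did so, among them Bcl2, which encodes a survival protein (1.47 and 1.33 times) and Tnfrsf9, which encodes the costimulatory receptor 4-1BB (1.70 and 2.38 times). This count and its examples were chosen after the values were seen, and no test was run on it.

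**Figure D4:**
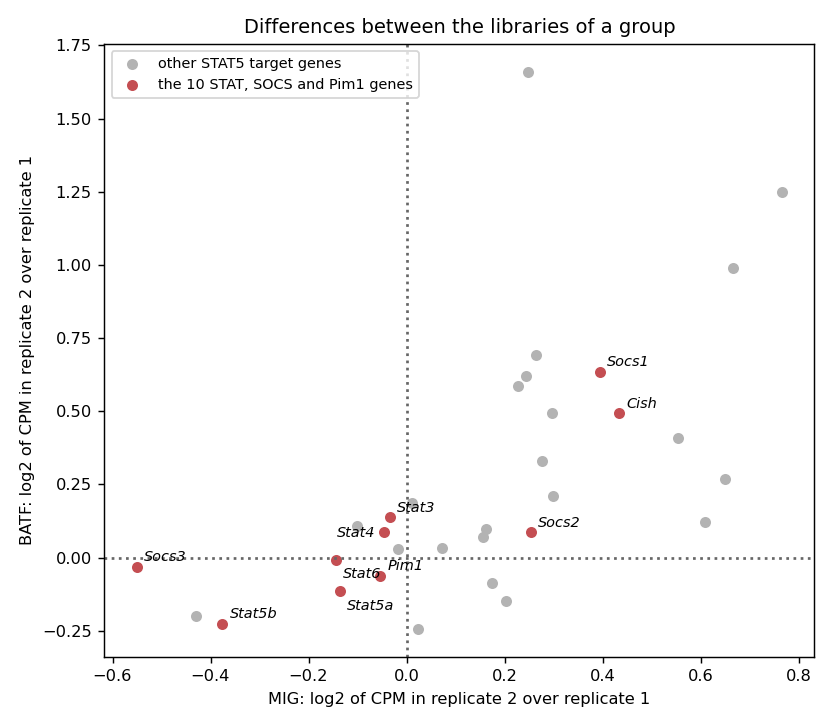
Log2 ratio of the CPM in replicate 2 over replicate 1 within MIG (horizontal axis) and within BATF (vertical axis), for the 10 genes (red, named) and for 22 other STAT5 target genes (grey). Cish, Socs1 and Socs2 lie in the upper right part together with 16 of the grey points.

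The rest of the pathway was read from lists of its kinases, receptors, inhibitors and target genes. Stat2, which carries interferon signals, stood at 47.7 and 35.2 CPM with the empty vector and at 35.2 and 36.1 CPM with BATF. The difference of −0.22 (log2) became 0.02 when MIG replicate 1 was left out. It reached −0.43 when MIG replicate 2 was left out, and passed there (edgeR adjusted p = 0.0473).

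Among the 4 Janus kinase genes edgeR, DESeq2 and limma-voom called 0. Before adjustment 1 had a p under 0.05 in edgeR, on the lower side, against 4.09% of all tested genes. Jak1, which pairs with the receptors of IL-2, IL-6 and interferons, stood at 833 and 799 CPM in MIG and 648 and 683 CPM in BATF. Its log2 fold change was −0.29, with an edgeR adjusted p of 0.196 that became 0.0299 without MIG replicate 2. Jak3, the kinase bound to the common gamma chain, stood at 239 and 181 CPM with the empty vector and at 252 and 217 CPM with BATF. The difference of 0.16 (log2) became −0.03 when MIG replicate 2 was left out. The median log2 fold change over the kinases was −0.02, near the −0.01 of all tested genes.

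Of 24 receptor genes that signal through STATs, 21 were tested, and 1 rose and 1 fell. Before adjustment, p was under 0.05 for 2 on the higher side and 7 on the lower, against 6.69% and 4.09% of all tested genes. DESeq2 called 1 higher and 4 lower, against 2.16% and 0.809% of the genes that it gave an adjusted p. The gene that rose was Il2ra, whose product CD25 gives the IL-2 receptor its high affinity, at 294 and 299 CPM in MIG and 693.5 and 586 CPM in BATF. Its log2 fold change was 1.11 ± 0.10 SE, with an adjusted p of 0.00932 by edgeR. The signalling chains did not pass: Il2rb, the beta chain, stood at 704 and 709 CPM and then at 766 and 872 CPM, and Il2rg, the common gamma chain, at 559 and 572 CPM and then at 432 and 470 CPM (edgeR adjusted p = 0.466 and 0.164). Il6ra, which encodes the alpha chain for IL-6, fell from 7.76 and 6.21 CPM to 2.69 and 1.93 CPM (log2 fold change −1.60, edgeR adjusted p = 0.0406), a call that was lost in 6 of 16 alternatives: without MIG replicate 1 (0.0653), with a stricter filter on low counts (0.0571), in limma-voom (0.0532) and in the 3 limma fits on FPKM (0.115 to 0.301). Over the receptors the median log2 fold change was −0.19. More receptors were called lower on leaving out MIG replicate 2 or either BATF library, but these fits also called more of all genes lower.

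In the list of 16 other inhibitors, all tested, 1 gene rose and 0 fell. The gene that rose was Cdkn2a, at 12.8 and 9.51 CPM in MIG and 27.6 and 28.2 CPM in BATF, a log2 fold change of 1.32 with an edgeR adjusted p of 0.0243. It encodes the cell cycle inhibitors INK4A and ARF and is no core part of JAK-STAT signalling. None of the list's inhibitors of that pathway passed edgeR's test on the higher side. Sh2b3, which encodes the adaptor LNK, stood at 46.5 and 53.1 CPM in MIG and at 15.9 and 25.8 CPM in BATF, with no overlap. Its log2 fold change was −1.25 ± 0.22 SE, or 58.0% less, and just missed the threshold (edgeR adjusted p = 0.0590). It passed, on the lower side, in 8 of 16 alternatives. Among them were DESeq2 (adjusted p = 4.93e-07) and edgeR with the authors' scaling factors (0.0337) and with no filter on low counts (0.00122). Those fits also called more of all genes: 349, 178 and 349, against 142 in the main fit. The 8 include each fit that left out 1 library, where the log2 fold change was −1.65 to −0.95. The list's median was −0.04. Before adjustment 1 gene on the higher side and 2 on the lower had a p under 0.05. Of all tested genes, 6.69% and 4.09% did. Each fit that left out 1 library called more of the 16 lower than the main fit, but also more of all genes.

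Of the 22 other STAT5 target genes tested, 1 rose, Il2ra, and 0 fell, with a median log2 fold change of 0.12. More of them were called higher without MIG replicate 2 or BATF replicate 1, and a call on the lower side appeared without BATF replicate 2. These fits also called more of all genes. Without adjustment, 4 targets were on the higher side and 2 on the lower at p under 0.05. Of all tested genes, 6.69% and 4.09% were. DESeq2 called 2 targets higher, against 2.16% of the genes that it gave an adjusted p. Of 19 target genes of STAT3, STAT4 and STAT6, 5 rose and 0 fell, with a median of 0.13. They were Batf, the overexpressed gene, and 4 others: Icos, a costimulatory receptor (1.38), Maf, a factor of helper T cells (2.27), Prdm1, which encodes BLIMP-1 (1.35), and Hif1a, the oxygen-regulated factor (0.52), with the log2 fold change in parentheses and edgeR adjusted p from 0.00523 (Icos) to 0.0460 (Hif1a). Hif1a lost its call without BATF replicate 1 (0.248) or BATF replicate 2 (0.0735) and with a stricter filter on low counts (0.0610). In the 3 limma fits on FPKM the calls of Hif1a, Maf and Prdm1 were lost (adjusted p 0.0594 to 0.265). Of those fits, 2 lost Cdkn2a (0.0504 and 0.191), and the one without a filter lost Icos (0.0525) and Il2ra (0.0936).

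**Figure D5:**
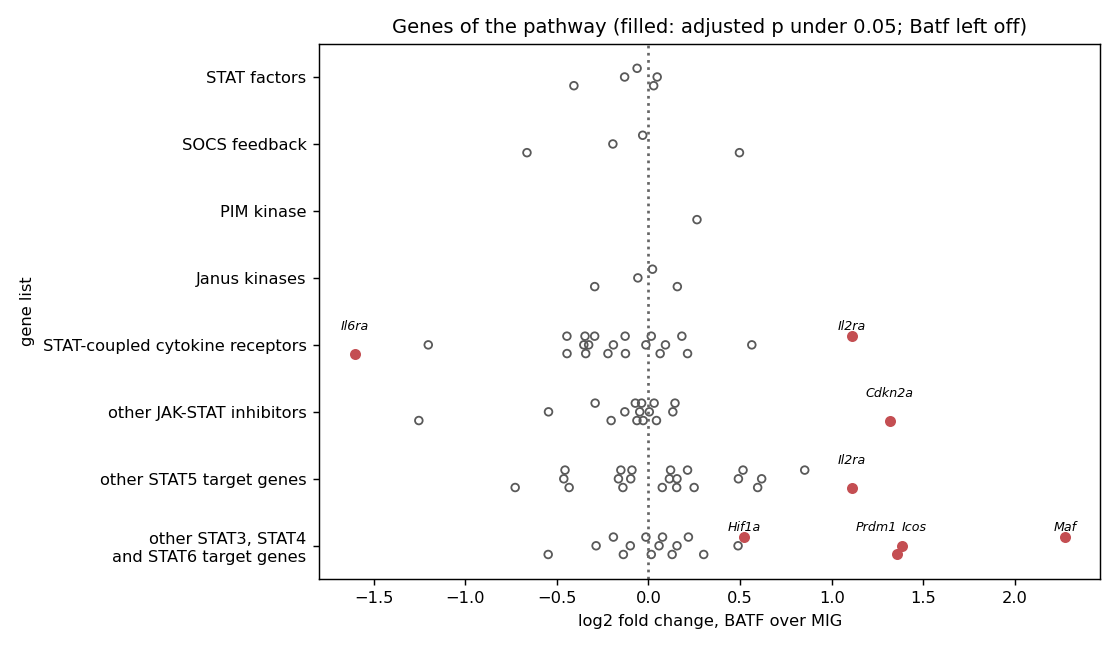
Log2 fold change of BATF over MIG (horizontal axis) for each tested gene of the lists shown (rows), with Batf left off; filled red points passed edgeR's test at an adjusted p of 0.05. No STAT, SOCS or Pim1 gene is filled, and the filled points are Il2ra, Il6ra, Cdkn2a, Hif1a, Icos, Prdm1 and Maf.

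The pattern nearest to that of Stat4, the gene with the lowest p of the 10, was sought among 9351 tested genes outside the 10 with a mean of at least 5 CPM. Likeness was the root mean square difference of log2 CPM over the 4 libraries after each gene was centred on its own mean. The nearest were Zfp180, a zinc finger gene (0.0127), Entpd5, which encodes a nucleotide diphosphatase of the endoplasmic reticulum (0.0136), and Gbp9, an interferon-inducible GTPase gene (0.0144). Their log2 fold changes were −0.39, −0.40 and −0.39. None of the 3 passed edgeR's test, and the ranking is a description.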

How the data were processed

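Per the submitters' processing notes, TopHat2 2.1.1, Cufflinks 2.2.2 and Cuffdiff were used with build mm9. The annotation and the strand setting are not stated in the sources used here. Per gene and library, the deposited table holds estimated counts (fragments per gene and library before scaling), a scaled fragment signal and FPKM, all made by the authors' Cuffdiff run, per the file headers. Replicates are numbered 0 and 1 there, read here as the titles' 1 and 2, and no label says what a number marks. None of the 10 genes' estimated counts held a fraction.

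Counts were rounded. The main test was run with edgeR 4.0.16 under R 4.3.3 (filterByExpr, TMM, quasi-likelihood, BATF against MIG, no covariate), with Benjamini-Hochberg adjustment over 13008 genes and a threshold of 0.05. DESeq2 1.42.0 and limma 3.58.1 served as alternatives, the latter also on log2(FPKM + 1) and log2(FPKM + 0.1). The scaled signal gave the authors' library factors (0.889 to 1.11), used in 1 alternative. Intervals are 95%, from the SE and the fit's degrees of freedom.

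The 10 genes and the lists were chosen with earlier results of these data known. Named are all 10, Batf, each pathway gene that passed (where none did, the 2 with the lowest p) and the 3 genes nearest in pattern to the one with the lowest p. Il2rb, Il2rg, Pim2, Pim3, Sh2b3, Bcl2, Tnfrsf9 and the marker genes were named after their values were seen. Some results of the lists are not reported here. Of the markers of other cells, B cell (7 genes) summed to 12.4 to 18.7 CPM, myeloid and dendritic (11 of 12 listed) to 7.40 to 13.6, NK and gamma-delta T (5 of 6 listed) to 0.830 to 1.30, and erythroid, platelet and stromal (10) to 60.7 to 91.5, and edgeR called 0 of them. Most of the B cell sum was Cd79b (11.2 to 17.2 CPM), and 6 of the 7 genes stayed under 1 CPM. Most of the erythroid, platelet and stromal sum was Pecam1 (54.5 to 88.2 CPM), and 8 of the 10 stayed under 1 CPM.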

Additional observations from a re-analysis of the deposited data

How the results depend on the processing

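There were 16 alternative fits, 15 planned and 1, scaling by the authors' factors, chosen after seeing the data. Of 160 alternative log2 fold changes of the 10 genes, 8 changed sign, each on leaving out 1 library. Leaving out 1 library gave −0.043 to 0.10 for Stat3, −0.14 to 0.25 for Stat5b, −0.14 to 0.016 for Stat6, −0.55 to 0.089 for Socs1, −0.30 to 0.20 for Cish, −0.035 to 0.37 for Jak3, −0.27 to 0.35 for Pim3 (−0.038 without MIG replicate 1) and −0.43 to 0.023 for Stat2. A group left with 1 library takes its spread from the group with 2. Calls among the 10 genes were 0 except in DESeq2 (1 higher, 2 lower), with no filter on low counts (1 higher), with the replicate number as a block (2 higher, 2 lower) and on leaving out 1 library (0 to 1 higher, 0 to 2 lower). Of all genes, 115 were called higher and 27 lower. DESeq2 called 254 and 95, edgeR with no filter 266 and 83, limma on log2(FPKM + 0.1) 39 and 10, on log2(FPKM + 1) 32 and 4 and without its filter 3 and 0, and leaving out 1 library gave 192 to 320 and 55 to 269. Of 80 tested pathway genes, which include the overexpressed Batf, 7 were called higher, Batf among them, and 1 lower. DESeq2 called 6 lower, the authors' factors 4, no filter 5 and limma-voom and the stricter filter 0. The FPKM fits called 4, 3 and 1 higher and 0 lower, and leaving out 1 library gave 6 to 11 and 2 to 11. The replicate block, with 1 residual degree of freedom, called 916 and 588 of all genes and 14 and 14 of the pathway. The labels do not say what libraries of the same number share, and their deviations correlated at 0.18 across genes. Under the block Stat4, Socs2, Socs3 and Pim1 passed (edgeR adjusted p = 5.72e-06, 9.38e-08, 1.95e-06 and 0.00856). The cause of these differences was not tested. Fragments per library limit the precision of genes at low levels, and 2 libraries a group that of all.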
